A study of Rattus norvegicus with 10 samples.

Results

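The core cardiac transcription factors are the DNA-binding and associated regulators that build heart muscle and keep its gene program running. The set described here holds 10 genes chosen by name (Gata4, Gata6, Nkx2-5, Tbx5, Tbx20, Hand1, Hand2, Hopx, Irx4 and Hey2) of 39784 gene names in the deposited tables, and each was present on 1 entry. Expression was measured by poly(A) RNA sequencing of wild-type neonatal rat cardiomyocytes, beating muscle cells isolated from newborn rat heart. One group of 2 libraries had the treatment label Ad-Xon-YAP5SA and the other group of 2 the label Ad-Xon-YAP5SA-S94A. YAP5SA is a form of the coactivator YAP that escapes Hippo kinase control because its serine phosphorylation sites are alanines, and the S94A form has in addition a serine-to-alanine change that impairs contact with TEAD DNA-binding factors. Both groups thus overexpressed YAP with the activating changes, and cells with GFP were among the 6 CUT&RUN samples only, which are not analysed here. A difference between the groups therefore does not show which form departed from untreated cells. Words such as fell and rose below mean lower and higher in YAP5SA than in YAP5SA-S94A, with neither form taken as a baseline. The labels give no chamber of origin, number of animals or time after treatment. They call the libraries biological replicates without saying whether cultures were separate, so p values measure the spread between these libraries, which may be technical.

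These factors work as a network. GATA4, NKX2-5, TBX5 and the HAND proteins bind neighbouring sites in the regulatory DNA of cardiac genes, contact one another, and activate each other's genes as well as those of contractile proteins, ion channels and natriuretic peptides. A further layer divides the heart into chambers: TBX5 marks atria and left ventricle, HAND2 is prominent in the right ventricle, and IRX4 and HEY2 hold ventricular identity by repressing atrial genes.

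The labelled cell type was checked first. Cardiomyocyte markers were abundant, with Tnnt2, cardiac troponin T, at 5811 to 8190 TPM (a transcript level scaled for gene length and to the same sum in every library). The 8 cardiomyocyte markers summed to 10239 and 10085 TPM in YAP5SA and to 15710 and 15815 TPM in YAP5SA-S94A, and 7 of the 8 were lower in both YAP5SA libraries. The 10 fibroblast markers, none of them at 0, summed to 8645 and 6886 TPM in YAP5SA, against 7351 and 6995 in YAP5SA-S94A, so these cultures also held fibroblast RNA. Of these markers 2 were higher and 3 lower in both YAP5SA libraries. The 9 endothelial markers summed to 27.9 and 29.4 TPM in YAP5SA against 38.7 and 39.3, with 3 higher and 3 lower in both YAP5SA libraries. The 7 smooth muscle markers summed to 309 and 276 TPM in YAP5SA against 227 and 242 (3 higher, 1 lower). The 8 macrophage markers summed to 124 and 112 TPM in YAP5SA against 137 and 137 (1 higher, 7 lower). The 7 epicardial markers summed to 98.6 and 83.2 TPM in YAP5SA against 49.2 and 47.4, with 3 of them higher and 3 lower in both YAP5SA libraries. Krt19 (41.5 and 33.0 against 7.54 and 7.15 TPM) and Upk3b (22.4 and 18.2 against 0.61 and 0.54) made up the gap, while Wt1, Upk1b and Tbx18 were lower in YAP5SA; these 5 are named after their values were seen. Non-muscle cells of the heart also make some of the factors, GATA4, GATA6, TBX20 and HAND2 among them, and which cells made each factor here was not measured. In bulk RNA fewer cells of a type and less RNA per cell cannot be told apart, and the part of cell composition in the results below was not tested. The marker scaling given near the end cannot tell them apart either, because 6 of its 8 genes were themselves called lower. Sequencing depth, read from the ratio of coverage to FPKM, was 4.02 to 5.10 gigabases per library, and the shallowest was YAP5SA replicate 2. The mitochondrial share of TPM was 7.53% and 10.2% in the YAP5SA libraries and 12.6% and 14.0% in the others.

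Of the 10 factors 3 were called lower in YAP5SA than in YAP5SA-S94A, namely Hopx, Tbx5 and Irx4, and 0 were called higher. A call here is a limma adjusted p under 0.05 on log2(TPM + 1) among 13420 tested genes with a mean of at least 1 TPM, and all 10 factors passed that filter. At an unadjusted p under 0.05, 4 were lower and 0 higher. Over all tested genes 15.5% were called lower, 17.4% higher and 32.9% in either direction, so the share of factors called did not stand far from the background. The median log2 fold change of the 10 was −0.15, beside 0.00015 over all genes. Library values of the forms were separate for 7 of the 10 factors and for 68.2% of all tested genes. With 2 libraries against 2, the smallest two-sided p of an exact permutation test is 0.333, so calls rest on the variance that limma pools over genes. A fit that leaves out 1 library has a lone library in 1 form, which is assumed to vary like the other form. Calls and adjusted p values of such fits below rest on that assumption.

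**Figure D1:**
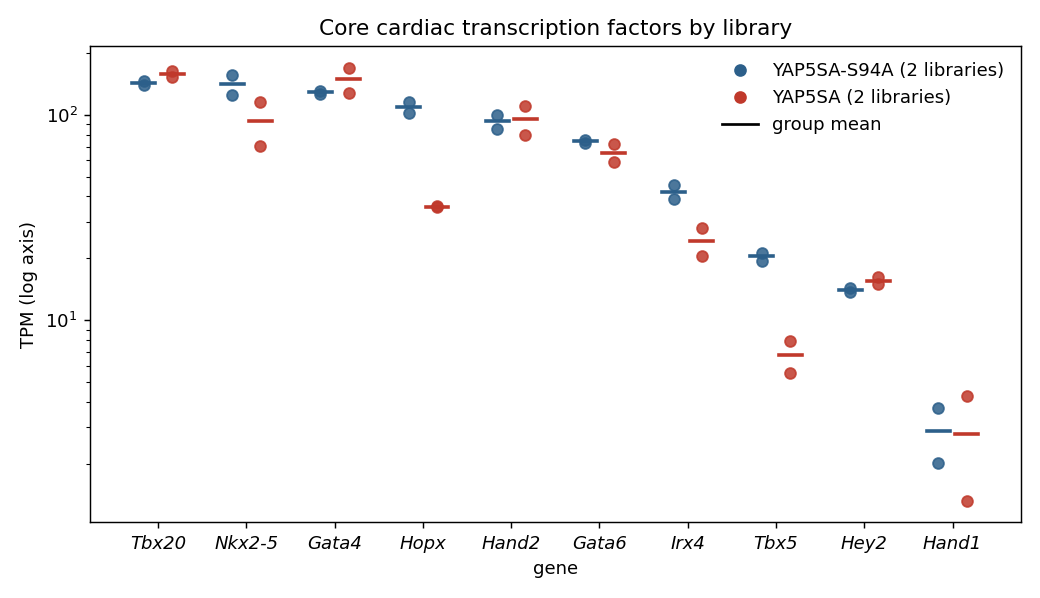
TPM on a log axis for each of the 10 factors, with each of the 2 libraries of a form as a point and a bar at the group mean. Hopx, Tbx5 and Irx4 lie lower in both YAP5SA libraries, while the points of Gata4, Hand1 and Hand2 overlap between forms.

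To show the DNA next to the factors called lower, the 250 bases upstream of the start of Hopx, Tbx5 and Irx4 are given. Hand2 is added as a factor whose level did not separate the forms and whose window alone held the GATA word searched. The windows are RefSeq sequence of build GRCr8, whereas gene coordinates further on are those of the deposited rn7 tables, and 9 of the 10 factors, all but Gata4, were matched. They are written 5′ to 3′ on the strand of the gene, Hopx from chr14:31429163-31429412 (plus strand), Tbx5 from chr12:42395360-42395609 (minus), Irx4 from chr1:31868090-31868339 (minus) and Hand2 from chr16:37931489-37931738 (minus). Capitals mark E-boxes (CANNTG, the element bound by basic helix-loop-helix proteins) and the GATA word (AGATAA on either strand).
Hopx: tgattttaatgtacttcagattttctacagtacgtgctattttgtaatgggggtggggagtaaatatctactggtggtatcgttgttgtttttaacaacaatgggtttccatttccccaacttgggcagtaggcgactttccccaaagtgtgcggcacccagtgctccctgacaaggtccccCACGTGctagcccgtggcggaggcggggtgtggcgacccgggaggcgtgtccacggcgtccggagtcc
Tbx5: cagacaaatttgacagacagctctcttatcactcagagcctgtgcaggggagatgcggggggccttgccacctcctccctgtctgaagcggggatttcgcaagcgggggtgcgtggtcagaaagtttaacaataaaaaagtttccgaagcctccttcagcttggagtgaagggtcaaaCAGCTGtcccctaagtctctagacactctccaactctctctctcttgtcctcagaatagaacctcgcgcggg
Irx4: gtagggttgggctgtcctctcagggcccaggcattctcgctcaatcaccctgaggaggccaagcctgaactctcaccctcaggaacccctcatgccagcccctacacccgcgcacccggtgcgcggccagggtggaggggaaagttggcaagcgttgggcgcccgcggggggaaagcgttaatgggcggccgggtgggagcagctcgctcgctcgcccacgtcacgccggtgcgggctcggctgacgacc
Hand2: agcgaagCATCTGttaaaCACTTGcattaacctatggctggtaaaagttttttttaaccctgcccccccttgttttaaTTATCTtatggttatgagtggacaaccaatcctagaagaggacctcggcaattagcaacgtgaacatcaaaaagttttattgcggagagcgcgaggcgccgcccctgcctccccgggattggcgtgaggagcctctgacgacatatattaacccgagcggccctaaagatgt

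The Hopx window held 1 E-box, CACGTG, whose first base lies 68 bases before the start, and the Tbx5 window held 1, CAGCTG, 72 bases before it. Irx4 held no E-box in this window. Hand2 held 2 E-boxes and the GATA word TTATCT, 172 bases before its start. E-boxes were present in 4 of the 9 windows and in 65.5% of all 33469 windows of this length. The core TEAD word (GGAATG, both strands) was present in 0 of the 9 and in 12.1% of all windows. The GATA word was present in 1 of the 9 and in 10.3% of all windows. Variants of the word were not searched, such as TGATAA, whose reverse complement TTATCA is in the Tbx5 window. A T-box word (AGGTGT, both strands; 11.6% of all windows) and 2 NKX2-5 words (TCAAGTG and TTAAGTG, both strands; 4.54% of all windows) were found in none of the 9 windows. Absence says only that these letters are not in these 250 bases, and distal elements were not searched. None of these words overlapped another in the printed windows. GC content of the 9 windows ranged from 48.0% for Hand2 to 73.2% for Hey2, against a median of 51.2% over all windows.

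Hopx had the largest log2 fold change of the set, close to that of Tbx5, which was the larger with a pseudocount of 0.1 (−1.61 against −1.60 for Hopx), without YAP5SA replicate 1 (−1.71 against −1.59) and without YAP5SA-S94A replicate 1 (−1.55 against −1.49). It encodes a small homeodomain protein that does not bind DNA itself and restrains serum response factor, in part through histone deacetylases. Its level (chromosome 14, 31055912 to 31082909, plus strand, rn7) was 35.9 and 35.4 TPM in the YAP5SA libraries and 115 and 102 TPM in the YAP5SA-S94A libraries. Both YAP5SA values were thus far below both others, with means of 35.6 ± 0.37 (SD, n = 2) and 109 ± 9.16 TPM, a 3.05-fold difference. The log2 fold change was −1.58 (SE 0.11, 95% interval −1.84 to −1.32, limma adjusted p = 8.73e-05), and 4.94% of all tested genes had a larger absolute change. Per-base read coverage of Hopx was 5.38 and 3.85 in YAP5SA and 16.8 and 14.4 in YAP5SA-S94A. That is thin beside Hey2, at 32.9 and 22.7 in YAP5SA with a lower TPM. The 2 uncharacterized entries on the opposite strand within the Hopx span were listed at 0 in each library. Genes nearest to Hopx by Euclidean distance of log2(TPM + 1) over the 4 libraries were Slc25a30, a mitochondrial carrier gene (distance 0.16), the ephrin gene Efnb3 (0.34) and Hrc, a histidine-rich calcium-binding protein gene of the sarcoplasmic reticulum (0.39). Slc25a30, for example, stood at 37.0 and 38.1 TPM in YAP5SA, against 106 and 100.4 in YAP5SA-S94A.

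The T-box genes parted from each other. TBX5 is the T-box activator whose loss causes heart and limb defects, and TBX20 is the T-box factor that maintains working myocardium. Tbx5 (chromosome 12, 36686344 to 36739253, minus strand) was at 7.92 and 5.55 TPM in YAP5SA and 19.5 and 21.3 TPM in YAP5SA-S94A. The groups were well separated, with a 3.03-fold difference of means (6.73 ± 1.67 and 20.4 ± 1.29 TPM, n = 2 each). The log2 fold change was −1.49 (SE 0.19, 95% interval −1.93 to −1.04, limma adjusted p = 0.00123). Tbx20 (chromosome 8, 23200104 to 23258218, minus strand) was at 163 and 153 TPM in YAP5SA and 140 and 146 TPM in YAP5SA-S94A. Its YAP5SA values lay above the others without overlap, yet the difference was small and was not called (log2 fold change 0.15, SE 0.09, 95% interval −0.07 to 0.37, limma adjusted p = 0.261). Within each library Tbx5 made up 4.62% and 3.49% of the summed TPM of both genes in YAP5SA and 12.3% and 12.8% in YAP5SA-S94A. These shares hold for TPM. Per-base coverage of Tbx5 and Tbx20 was 10.9 and 86.6 in YAP5SA replicate 1 and 27.3 and 73.9 in YAP5SA-S94A replicate 1. The log2 ratio of Tbx5 to Tbx20 differed by −1.77 between YAP5SA and YAP5SA-S94A (exact permutation p = 0.333, two-sided, the smallest this design allows). Among their relatives, Tbx3, a repressor of working-myocardium genes in the conduction system, was at 1.19 and 1.00 TPM in YAP5SA, against 2.89 and 2.31 in YAP5SA-S94A (limma adjusted p = 0.0461). That call, of a gene named after its values were seen, was lost when any 1 of the 4 libraries was left out (adjusted p from 0.0520 to 0.286). Tbx18 and Tbx2 were not called.

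Irx4, the ventricle-restricted Iroquois homeodomain repressor, was the third factor called lower. It stood at 28.2 and 20.5 TPM in YAP5SA and at 45.8 and 38.8 TPM in YAP5SA-S94A (chromosome 1, 30030561 to 30039549, minus strand). The groups did not overlap, and the mean was 1.74-fold higher in YAP5SA-S94A. The log2 fold change was −0.78 (SE 0.17, 95% interval −1.19 to −0.37, limma adjusted p = 0.0131), exceeded in size by 18.6% of all tested genes. Without each library in turn the smallest log2 fold change was −0.56. The call was lost with no filter on low values (limma adjusted p = 0.0645). Its relatives Irx3 and Irx5, which shape electrical properties of the ventricle, also fell. Irx3 went from 46.5 and 42.0 TPM in YAP5SA-S94A to 17.2 and 12.0 TPM in YAP5SA (log2 fold change −1.56, limma adjusted p = 8.34e-04), and Irx5 from 30.6 and 33.1 to 15.7 and 8.46 TPM (−1.38, limma adjusted p = 0.00610; 0.0517 with no filter). Of the 5 tested Iroquois genes 3 fell, beside 15.5% of all tested genes called lower. Irx1 and Irx2, at or below 3.68 TPM in each library, were not called. The 5 genes together summed to 65.3 and 44.4 TPM in YAP5SA and 129 and 119 TPM in YAP5SA-S94A, the summed level being lower in both YAP5SA libraries.

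Nkx2-5, the NK2-class homeodomain factor at the centre of the network, pointed the same way without passing the threshold. Its level (chromosome 10, 16340428 to 16347004, plus strand) was 116 and 70.3 TPM in YAP5SA and 156 and 125 TPM in YAP5SA-S94A. The groups did not overlap, but the YAP5SA libraries differed widely from each other (mean 93.0 ± 32.1 against 140 ± 21.7 TPM, n = 2 each). The log2 fold change was −0.62 (SE 0.23, 95% interval −1.16 to −0.09, limma adjusted p = 0.0734). It was called lower with median-of-ratios scaling (adjusted p = 0.0413), with the mitochondrial chromosome left out (0.0323), without YAP5SA replicate 1 (log2 fold change −0.98, adjusted p = 0.0104) and without YAP5SA-S94A replicate 2 (−0.78, adjusted p = 0.00185). Without YAP5SA replicate 2 the log2 fold change was −0.27. The ratio of Nkx2-5 to Irx4 was 4.10 and 3.42 in YAP5SA and 3.40 and 3.22 in YAP5SA-S94A, so the lowest YAP5SA value nearly met the highest YAP5SA-S94A value.

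The GATA zinc-finger factors, which open and activate cardiac enhancers, were not called. Gata4 (chromosome 15, 37459601 to 37531291, minus strand) stood at 170 and 128 TPM in YAP5SA and 126 and 131 TPM in YAP5SA-S94A. YAP5SA replicate 1 was the high library and the other 3 lay close together (log2 fold change 0.20, SE 0.14, 95% interval −0.13 to 0.53, limma adjusted p = 0.3196). The log2 fold change of Gata4 was 0.40 without YAP5SA replicate 2 and −0.0028 without replicate 1. An uncharacterized entry on the opposite strand within the span of Gata4 was at 3.32 to 7.52 TPM, and whether counting used strand is not given in the sources used here. Gata6 (chromosome 18, 2188121 to 2219532, plus strand) stood at 71.8 and 58.9 TPM in YAP5SA and 73.0 and 75.4 TPM in YAP5SA-S94A. The YAP5SA values were the lower ones, by little in replicate 1 (log2 fold change −0.19, SE 0.12, 95% interval −0.48 to 0.11, limma adjusted p = 0.288). The log2 fold change of Gata6 was −0.33 without that library and −0.046 without YAP5SA replicate 2. Gata4 took 70.3% and 68.5% of the summed TPM of Gata4 and Gata6 in YAP5SA and 63.3% and 63.5% in YAP5SA-S94A. Their relative Gata5, a factor of endocardial and early myocardial development, fell from 35.6 and 35.7 to 18.3 and 12.2 TPM (limma adjusted p = 0.00325, log2 fold change −1.20).

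**Figure D2:**
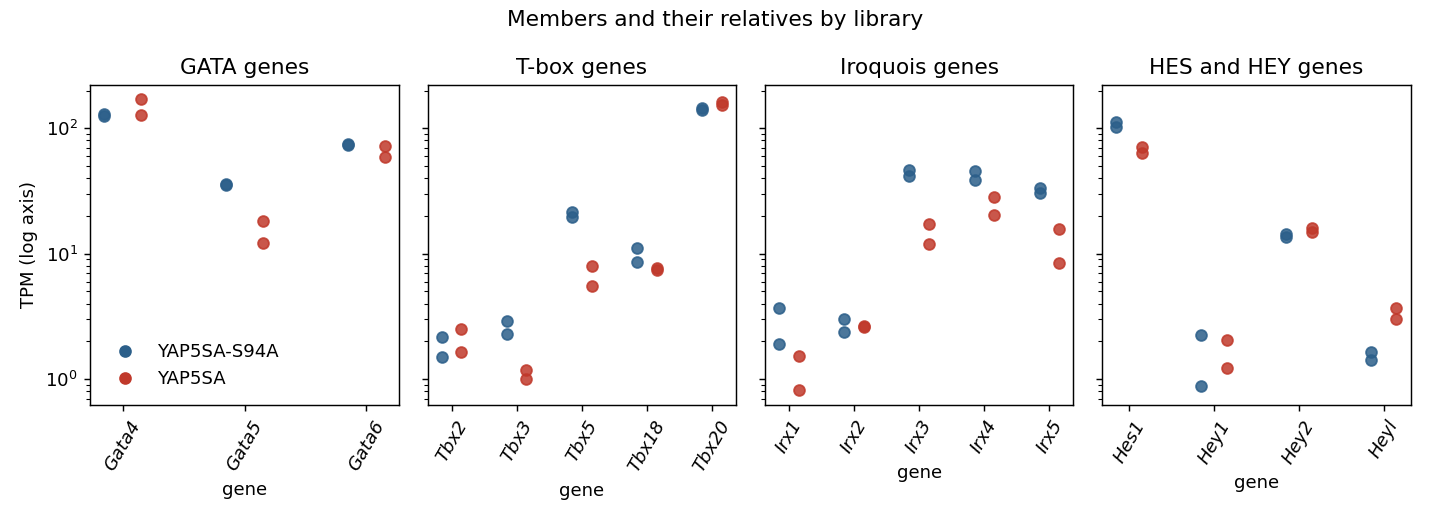
TPM on a log axis for the GATA, T-box, Iroquois and HES and HEY genes, with 2 points per form and gene. Gata5, Tbx3, Tbx5, Irx3, Irx4, Irx5 and Hes1 lie lower in both YAP5SA libraries and were called lower, and Heyl was called higher. The other genes, among them Gata4 and Hey2, were not called.

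The HAND genes encode basic helix-loop-helix factors of ventricular growth, and neither was called. Hand2 (chromosome 16, 32917448 to 32920791, minus strand) stood at 110.5 and 79.8 TPM in YAP5SA and 100.2 and 85.3 TPM in YAP5SA-S94A. The YAP5SA libraries were both the highest and the lowest, so the groups overlapped (log2 fold change 0.02, SE 0.17, 95% interval −0.37 to 0.42, limma adjusted p = 0.935). The interval leaves room for a change of about 0.4 in either direction. Hand1 (chromosome 10, 42006646 to 42009213, minus strand) stood at 4.27 and 1.32 TPM in YAP5SA and 3.74 and 2.02 TPM in YAP5SA-S94A. It was the least abundant factor by TPM, with a per-base read coverage of 2.00 to 8.71. Its replicates differed more than its groups (log2 fold change −0.11, SE 0.42, 95% interval −1.10 to 0.87, limma adjusted p = 0.861). A difference of up to about 1 on the log2 scale was therefore not detectable for Hand1 at this depth and number of libraries. Hand2 made up 96.3% to 98.4% of the summed TPM of both genes over the 4 libraries.

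Hey2, a Notch-responsive repressor of the compact ventricular wall, differed little. It stood at 16.1 and 14.95 TPM in YAP5SA and 14.4 and 13.6 TPM in YAP5SA-S94A (chromosome 1, 26822131 to 26832218, plus strand). The YAP5SA values were the higher ones, by a margin that was not called (log2 fold change 0.14, SE 0.14, 95% interval −0.19 to 0.47, limma adjusted p = 0.489). Of 13 tested genes of the Notch pathway 3 rose and 2 fell (median 0.17). These shares, 23.1% called higher and 15.4% lower, stood beside 17.4% and 15.5% of all tested genes. The ligand gene Jag1 rose from 9.88 and 9.50 to 34.2 and 28.9 TPM (log2 fold change 1.60, limma adjusted p = 2.83e-04). Its fellow ligand gene Jag2 fell from 8.28 and 8.17 to 3.94 and 3.18 TPM (−1.02, limma adjusted p = 0.00614), and the effector gene Hes1, a repressor, from 112 and 102 to 70.3 and 64.0 TPM (−0.67, limma adjusted p = 0.00358). The ligands thus moved in opposite directions. The other genes called higher, the effector Heyl (0.78, limma adjusted p = 0.0374) and the receptor Notch2 (0.49, 0.0429; named after its values were seen), lost their calls without YAP5SA replicate 1 and without either YAP5SA-S94A library (adjusted p from 0.0779 to 0.323), which left 1 gene called higher in each case.

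**Figure D3:**
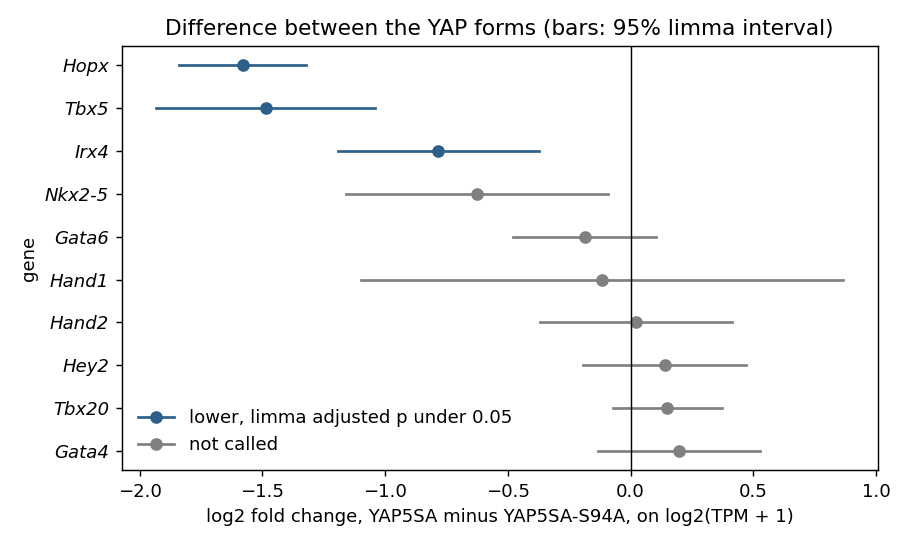
Log2 fold change of each factor, YAP5SA minus YAP5SA-S94A on log2(TPM + 1), with its 95% limma interval as a bar. Hopx (−1.58), Tbx5 (−1.49) and Irx4 (−0.78) are drawn in blue as called lower, and the intervals of Gata4, Gata6, Tbx20, Hand1, Hand2 and Hey2 cross 0.

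The order of the factors by TPM shifted between forms. In YAP5SA-S94A the means ran from Tbx20 (143 TPM), Nkx2-5 (140) and Gata4 (129) through Hopx (109), Hand2 (92.8), Gata6 (74.2), Irx4 (42.3), Tbx5 (20.4) and Hey2 (14.0) to Hand1 (2.88). Only the first 3 overlapped with a neighbour in their library values. In YAP5SA the order was Tbx20 (158 TPM), Gata4 (149), Hand2 (95.2), Nkx2-5 (93.0), Gata6 (65.3), Hopx (35.6), Irx4 (24.4), Hey2 (15.5), Tbx5 (6.73) and Hand1 (2.79). Here Tbx20 overlapped with Gata4, Hand2 with Nkx2-5 and Nkx2-5 with Gata6. Hopx went from rank 4 to 6 and Tbx5 from 8 to 9, below Hey2. The order between genes holds for TPM and differs by per-base coverage. In YAP5SA-S94A replicate 1 coverage was 73.9 for Tbx20 and 16.8 for Hopx, against 276 for Nkx2-5, 238 for Gata4 and 200 for Hand2. Summed over the 10 factors the level was 724 and 568 TPM in YAP5SA and 793 and 741 TPM in YAP5SA-S94A.

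YAP5SA replicate 2 gave lower values than replicate 1 for all 10 factors, while 61.0% of all tested genes were lower in it. The median difference between these libraries, replicate 2 minus replicate 1 on log2(TPM + 1), was −0.42 for the factors and −0.08 for all genes. In YAP5SA-S94A 6 of the 10 were lower in replicate 2, beside 49.7% of all genes, with a median difference of −0.12. YAP5SA replicate 2 was also the shallowest library, and the part of depth in this spread was not tested. Without YAP5SA replicate 1 the log2 fold change was −0.33 for Gata6, −0.98 for Nkx2-5 and −0.0028 for Gata4. Without YAP5SA replicate 2 it was −0.046 for Gata6, −0.27 for Nkx2-5 and 0.40 for Gata4.

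Other transcription factors of heart development were described from a list of 30, of which 23 were tested. Of these 7 fell and 2 rose (median −0.18), or 30.4% called lower and 8.70% higher, beside 15.5% and 17.4% of all tested genes. The 4 with the smallest p were Irx3, Gata5, Hes1 and Irx5, given above, and they fell in each leave-one-out fit. Those that rose were Heyl and Foxc2, a forkhead factor of vessel and outflow tract development (9.73 and 7.14 TPM in YAP5SA, 4.97 and 4.58 in the other form, limma adjusted p = 0.0361), picked after seeing its values. The Foxc2 call was lost without YAP5SA replicate 1 and without either YAP5SA-S94A library (adjusted p from 0.0880 to 0.149). In those fits 0 genes of the list were called higher, and without YAP5SA-S94A replicate 1 the number called lower was 4. Isl1, a second heart field factor, was at 0.21 and 0.37 TPM in YAP5SA-S94A and listed at 0 in both YAP5SA libraries, under the filter for testing.

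Of 22 tested partner factors and cofactors 4 fell and 2 rose (median −0.14). As shares, 18.2% were called lower and 9.09% higher, beside 15.5% and 17.4% of all tested genes. Nfatc2, a calcineurin-regulated partner of GATA proteins, fell from 12.5 and 11.7 to 2.68 and 2.26 TPM (log2 fold change −1.91, limma adjusted p = 3.57e-04). Mef2d, a MADS-box partner, fell from 90.4 and 85.9 to 65.6 and 49.4 TPM (−0.62, limma adjusted p = 0.0166). Chd4, a nucleosome remodeller that binds GATA4, NKX2-5 and TBX5, was called lower (−0.35, limma adjusted p = 0.0266), as was Nfatc3 (−0.37, 0.0446). Myocd, the coactivator of serum response factor, was called higher (0.47, limma adjusted p = 0.0263), as was Smarcd3, the cardiac BAF remodelling subunit (0.46, 0.0333). The calls of Chd4, Nfatc3, Myocd and Smarcd3 were each lost without either YAP5SA-S94A library (adjusted p from 0.0635 to 0.306), which left 2 genes called lower and 0 higher. The counts were 7 lower without YAP5SA replicate 1 and 4 higher without YAP5SA replicate 2. Nfatc3 and Smarcd3 were named after their values were seen.

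Genes commonly listed as targets of the core factors were described next. Among them Myh6, Tnni3, Mybpc3, Ryr2 and Tnnt2 are also cardiomyocyte markers summed above. Nppa, Myl7 and Gja5 are also on the atrial list below, so the counts of these lists are not independent. Of 25 tested targets 17 fell and 7 rose, leaving Slc8a1, the sodium-calcium exchanger gene, with means of 51.6 ± 6.05 and 51.2 ± 3.41 TPM, as the gene not called; it was chosen after seeing its values. The median log2 fold change was −0.75. As shares of the list, 68% were called lower and 28% higher, beside 15.5% and 17.4% of all tested genes, which were not matched to the list by expression level. Myh6, the fast cardiac myosin, was at 458 and 413 TPM in YAP5SA, against 1388 and 1499 in YAP5SA-S94A (limma adjusted p = 4.15e-05), and Mb, myoglobin, at 778 and 711 against 2224 and 2177 TPM (log2 fold change −1.56, limma adjusted p = 4.41e-05). In the other direction, Nppb, the B-type natriuretic peptide, was at 865 and 1150 TPM against 236 and 228 (2.10, limma adjusted p = 6.79e-05), and Ankrd1, also an established YAP target, rose by 2.22 (limma adjusted p = 2.87e-05). The list thus held strong changes in both directions, and 4 genes were called higher without YAP5SA-S94A replicate 2.

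Chamber genes were examined because Irx4, Hey2 and Tbx5 have roles in chamber identity. Of 8 tested ventricular genes 4 fell and 1 rose (median −0.38), beside 15.5% of all tested genes called lower and 17.4% called higher. Kcnip2, an accessory protein of the outward potassium current early in repolarization, was at 2.01 and 2.14 TPM in YAP5SA against 49.5 in both other libraries. Fhl2, a LIM-domain coregulator, fell by 0.74 (limma adjusted p = 0.00117), and Kcnj2, the inward rectifier channel (−0.74, limma adjusted p = 0.0121), and the light chain gene Myl3 (−0.47, 0.0133; named after its values were seen) were called lower too. Without YAP5SA-S94A replicate 2 the calls of Kcnj2 (adjusted p = 0.0672) and Myl3 (0.0618) were lost and 2 genes remained called lower. The Myl3 call was also lost without YAP5SA-S94A replicate 1 (0.174) and under quantile normalization (0.16). The gene that rose was Cited1, a transcriptional coregulator, from 75.1 and 65.9 to 322 and 247 TPM (1.99, limma adjusted p = 1.01e-04).

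Of 12 tested atrial genes 5 fell and 1 rose (median −0.45), or 41.7% called lower and 8.33% higher, beside 15.5% and 17.4% of all tested genes. Kcnj3, a subunit of the acetylcholine-gated potassium channel, went from 26.8 and 24.6 to 4.57 and 1.57 TPM (log2 fold change −2.82, limma adjusted p = 9.27e-04). Myl7, the atrial regulatory light chain, went from 167 and 159 to 70.9 and 80.6 TPM (−1.10, limma adjusted p = 3.74e-04). Dkk3, a secreted Dickkopf-family protein gene, was called lower (−0.51, limma adjusted p = 0.00829), as were the connexin gene Gja5 (−0.84, 0.0150) and the lipid transfer gene Stard10 (−1.24, 0.0235), both named after their values were seen. Without YAP5SA-S94A replicate 2 the calls of Dkk3 (adjusted p = 0.0664) and Gja5 (0.0819) were lost and 3 genes were called lower, and the Gja5 call was also lost without replicate 1 (0.0937). Nppa, the atrial natriuretic peptide, was the gene that rose, at 9625 and 9474 TPM against 3743 and 3714 (1.36, limma adjusted p = 6.83e-05). A second gene was called higher without YAP5SA replicate 2.

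**Figure D4:**
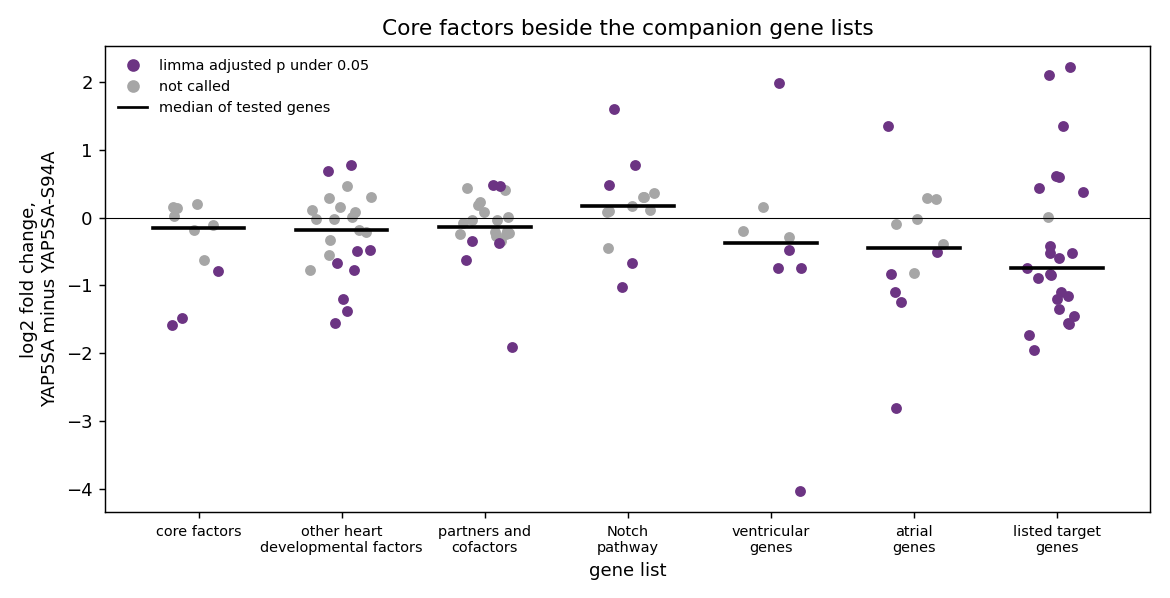
Log2 fold change (YAP5SA minus YAP5SA-S94A) of each tested gene of the core factors and of 6 companion lists, with called genes in purple, others in grey and a bar at each list's median. The core factors have a median of −0.15 and 3 called genes, and the listed targets a median of −0.75 and 24.

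When TPM was divided by the sum of the 8 cardiomyocyte markers, an alternative chosen after seeing the data, all genes shifted upward by a median of 0.58, with 8086 genes called higher and 577 lower instead of 2337 and 2083. On that scale Hopx (log2 fold change −0.96, limma adjusted p = 3.40e-04) and Tbx5 (−0.91, limma adjusted p = 0.00440) were still called lower. Irx4 was not (−0.17, limma adjusted p = 0.404), and Nkx2-5 was near 0 (0.0029, adjusted p = 0.992). Gata4 (0.83), Tbx20 (0.78), Hey2 (0.73), Hand2 (0.65) and Gata6 (0.44) were called higher. The scaling divides all genes of a library by 1 factor, so taking off the shift of all genes undoes it apart from the pseudocount. The values were then −1.53 for Hopx, −1.48 for Tbx5, −0.75 for Irx4 and −0.57 for Nkx2-5. They ranged from −0.24 to 0.25 for the other factors. These values restate the unscaled differences and are not a separate result. Of the 8 scaling genes 6 were themselves called lower, so this scale sets the factors against muscle genes that differed between the forms.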

How the data were processed

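RNA-seq tables of 4 libraries were used. TPM, FPKM and per-base coverage were computed by the authors and deposited per gene entry; per the submitters' processing notes the tools include fastp, HISAT2 2.2.1 and StringTie 2.2.1 with build rn7, and settings are not given in the sources used here. TPM and FPKM are not read counts, so no count test was run. Coverage, deposited without depth scaling, was used for depth and given as a value for some factors. Entries sharing a gene name were summed (517 names had more than 1 entry). The 13420 genes averaging 1 TPM or more entered limma 3.58.1 (R 4.3.3) on log2(TPM + 1), with a variance trend on intensity and Benjamini-Hochberg adjustment over all of them. The pseudocount makes fold changes of low genes too small. The code was tested on simulated data with noise smoothed over expression level, which checks the code and not the power in these libraries. The factors and lists were chosen with earlier results of these data known. Named were all 10 factors, up to 4 called genes with the smallest p per list and the 3 nearest neighbours of Hopx; others are given as named after their values were seen. Python 3.11.15, pandas 2.3.3 and matplotlib 3.10.9 made tables and figures. Alternatives changed the pseudocount, filter, unit, scaling, variance model or threshold, added a replicate block, or left out each library. One marker list is not reported here.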

Additional observations from a re-analysis of the deposited data

How the results depend on the processing

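Hopx and Tbx5 were called lower in each of the 18 alternatives, and Irx4 in all but no filter, adjusted p under 0.01 and scaling to the cardiomyocyte markers. Values that changed sign were Gata4 without YAP5SA replicate 1 (−0.0028; 0.40 at most, without YAP5SA replicate 2), Hand1 without YAP5SA replicate 2 (0.48) and without YAP5SA-S94A replicate 1 (0.21; −0.71 at the lowest, without YAP5SA replicate 1), Hand2 with FPKM (−0.0063), with the mitochondrial chromosome left out (−0.049), without YAP5SA replicate 1 (−0.21, against 0.25 without replicate 2) and without YAP5SA-S94A replicate 2 (−0.092), and Slc8a1 with FPKM (−0.021), with the mitochondrial chromosome left out (−0.063), without YAP5SA replicate 2 (−0.11) and without YAP5SA-S94A replicate 1 (−0.060). With scaling to the cardiomyocyte markers the sign changed for Gata6 (0.44), Hand1 (0.33), Nkx2-5 (0.0029), Mef2d (0.0025), Chd4 (0.28), Nfatc3 (0.24), Dkk3 (0.12) and Myl3 (0.16), a scale that adds to all genes. The cause of the other changes was not tested.

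Counts of called genes moved by over 1.5 times as follows, with list names shortened to developmental, partner, target, ventricular, atrial and Notch. Under that scaling 5 core factors, 8 developmental, 16 partner, 4 ventricular, 4 atrial and 7 Notch genes were called higher, and 3 developmental, 1 partner, 10 target, 1 ventricular, 2 atrial and 0 Notch genes lower. With FPKM 0 developmental, 0 partner and 1 Notch genes were called higher. With adjusted p under 0.01 the counts were 0 developmental, 0 partner and 1 Notch genes higher and 4 developmental, 1 partner, 2 ventricular and 3 atrial genes lower. With no filter they were 0 developmental, 0 partner and 1 Notch genes higher and 2 partner and 3 atrial genes lower. With a minimum of 5 TPM 1 developmental gene was called higher (Hand1 was not tested there), and with no intensity trend 0 partner genes were called higher and 1 lower. Leaving out 1 library at a time, with the lone library assumed to vary like the other form, gave ranges of 0 to 1 core factors higher and 3 to 5 lower (beside 1700 to 2610 of all 13420 tested genes higher and 1312 to 2739 lower), 0 to 2 developmental genes higher and 4 to 7 lower, 0 to 4 partner genes higher and 2 to 7 lower, 4 to 7 target genes higher, 2 to 5 ventricular genes lower, 1 to 2 atrial genes higher and 3 to 6 lower, and 1 to 4 Notch genes higher.

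The titles number the libraries 1 and 2 in both groups, while the library names number them otherwise. The labels do not say that a number marks a shared culture, so the numbers were not taken as pairs. Deviations of same-numbered libraries correlated at r = 0.10 across 13420 genes, a single value that cannot decide whether libraries were paired. With the replicate number as a block Nkx2-5 was called lower (adjusted p = 4.50e-04), making 4 core factors, 2 atrial genes were called higher, and 2726 genes were called higher and 2593 lower in all. Depth in reads per gene is unknown, and 2 libraries per form limit the precision most for Hand1.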
